A study of Homo sapiens with 6 samples.

Results

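Expression of 10 receptor tyrosine kinases was compared in H1155 cells, a neuroendocrine large cell lung cancer line: MET, the TAM receptors TYRO3, AXL and MERTK, the platelet-derived growth factor receptors PDGFRA and PDGFRB, KIT, RET, ALK and NTRK2. The genes were taken by symbol from a table of read counts, and all 10 were found among its 58735 genes. The study asked what the transcription factor GFI1 does in lung cancer cells, and RNA-Seq was done on 3 libraries labelled WT (unedited H1155 cells) and 3 labelled GFI1-KO. For the GFI1-KO cells, pairs of guide RNAs and Cas9 were directed at the GFI1 promoter, and GFP-positive cells were sorted into monoclonal clones. All 6 libraries came from untreated cells grown in DMEM with 10% FBS, and RNA was taken up in TRIzol. The labels do not say whether the libraries of a group are separate cultures or clones, so the p-values below measure only the spread between these libraries.

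Receptor tyrosine kinases are single-pass membrane proteins. A ligand brings receptor molecules together, the kinase domains phosphorylate each other, and adaptors such as GRB2 and SHC1 then carry the signal to RAS and ERK, to PI3K and to STAT proteins. In lung cancer, MET, RET and ALK are known as oncogenes activated by exon skipping, amplification or gene fusion, AXL and MET are known for resistance to EGFR inhibitors, and KIT and RET are expressed in some neuroendocrine lung tumors. The data here are RNA levels of the whole gene and hold no information on fusions, splice forms, protein or phosphorylation.

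GFI1 is a zinc finger repressor that binds DNA at sites with the core letters AATC. The 250 bases before the transcription start of each receptor were therefore read from the RefSeq promoter table (GRCh38.p14) and searched for AATC on both strands. The windows of the 5 receptors whose counts differed between the groups are given 5′ to 3′ on the strand of the gene, with AATC, or GATT where the match is on the other strand, in capitals. They span chr15:41558962-41559211 on the plus strand for TYRO3, chr7:116671946-116672195 on the plus strand for MET, chr4:54229043-54229292 on the plus strand for PDGFRA, chr5:150155846-150156095 on the minus strand for PDGFRB and chr2:29921587-29921836 on the minus strand for ALK.
TYRO3: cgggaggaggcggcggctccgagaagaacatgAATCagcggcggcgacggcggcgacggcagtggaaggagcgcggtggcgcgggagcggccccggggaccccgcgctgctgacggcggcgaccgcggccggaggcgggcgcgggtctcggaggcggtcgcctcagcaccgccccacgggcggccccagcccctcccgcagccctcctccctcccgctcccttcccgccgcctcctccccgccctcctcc
MET: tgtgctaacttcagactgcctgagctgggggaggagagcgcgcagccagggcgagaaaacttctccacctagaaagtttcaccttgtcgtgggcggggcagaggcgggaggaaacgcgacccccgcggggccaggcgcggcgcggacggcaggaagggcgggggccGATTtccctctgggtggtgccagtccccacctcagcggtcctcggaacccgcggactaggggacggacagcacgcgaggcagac
PDGFRA: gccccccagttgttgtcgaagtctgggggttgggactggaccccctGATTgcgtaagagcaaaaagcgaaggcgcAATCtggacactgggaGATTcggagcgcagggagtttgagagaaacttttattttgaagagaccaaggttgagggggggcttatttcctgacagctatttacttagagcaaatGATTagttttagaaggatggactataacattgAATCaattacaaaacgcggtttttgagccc
PDGFRB: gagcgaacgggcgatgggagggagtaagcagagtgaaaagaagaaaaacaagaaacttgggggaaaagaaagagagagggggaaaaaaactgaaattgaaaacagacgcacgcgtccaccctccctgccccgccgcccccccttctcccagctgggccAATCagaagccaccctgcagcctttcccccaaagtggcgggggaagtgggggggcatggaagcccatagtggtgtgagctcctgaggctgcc
ALK: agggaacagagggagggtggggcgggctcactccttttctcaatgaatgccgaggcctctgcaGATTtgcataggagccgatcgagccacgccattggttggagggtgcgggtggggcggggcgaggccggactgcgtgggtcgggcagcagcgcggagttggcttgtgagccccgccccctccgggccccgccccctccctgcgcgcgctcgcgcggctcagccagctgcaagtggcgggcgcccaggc

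The 4 letters occurred in 7 of the 10 receptor windows and in 64.8% of the 35116 promoter windows of the same length in the table. PDGFRA had 5 matches and TYRO3, MET, PDGFRB, ALK, AXL and NTRK2 had 1 each, whereas MERTK, KIT and RET had none. The PDGFRA window, with a GC content of 46.8%, lay below the median of all windows (58.0%), and those of TYRO3 (80.0%), MET (68.4%) and ALK (71.6%) lay above it. Receptors with higher counts and receptors with lower counts both held the letters, which are short and common, and a match is a description of the sequence and not a binding site.

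Library totals lay between 14882914 and 17692882 counts, and the floor used here, 3 counts in a library, corresponded to 0.170 to 0.202 CPM (counts scaled to a common library total). GFI1 itself had 153, 106 and 125 counts in WT and 174, 188 and 170 in the GFI1-KO-labelled libraries. These counts did not fall (log2 fold change 0.31 ± 0.12 (SE), adjusted p = 0.0273, edgeR; 0.03, adjusted p = 0.866, with GC and length offsets), although the edit was aimed at its promoter. At the level of RNA counts of the whole gene this goes against the label, and every direction given here rests on the labels. The paper examined GFI1 protein in WT and GFI1-KO H1155 cells by immunoblot, a measure that RNA counts do not replace. The neuroendocrine label was checked with 12 markers, not all of which are reported singly. They summed to 859 to 869.6 FPKM in WT and 1124 to 1142.5 FPKM in the GFI1-KO-labelled libraries, and SCG2, UCHL1 and INSM1 had the highest levels. Of these markers 8 were higher and 4 lower (4 and 7 with GC and length offsets). A large part of the transcriptome differed between the groups: 12680 of 17514 tested genes (72.4%) passed an adjusted p of 0.05 or less. Of all tested genes 36.5% were called higher and 35.9% lower in the GFI1-KO-labelled libraries, and 74.4% had no overlap between the normalized counts of WT and GFI1-KO. Across 17415 genes the log2 fold change was larger at higher GC content of the gene (Spearman's rho = 0.587, across genes of the same 6 libraries, which are not independent replicates). The fold changes of named genes are therefore given a second time with offsets for GC content and gene length. This was done where the offsets ended a call, turned the sign or moved the value by over 1.5 times. With the offsets, 6215 of 17415 genes were called higher and 4412 lower.

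**Figure D1:**
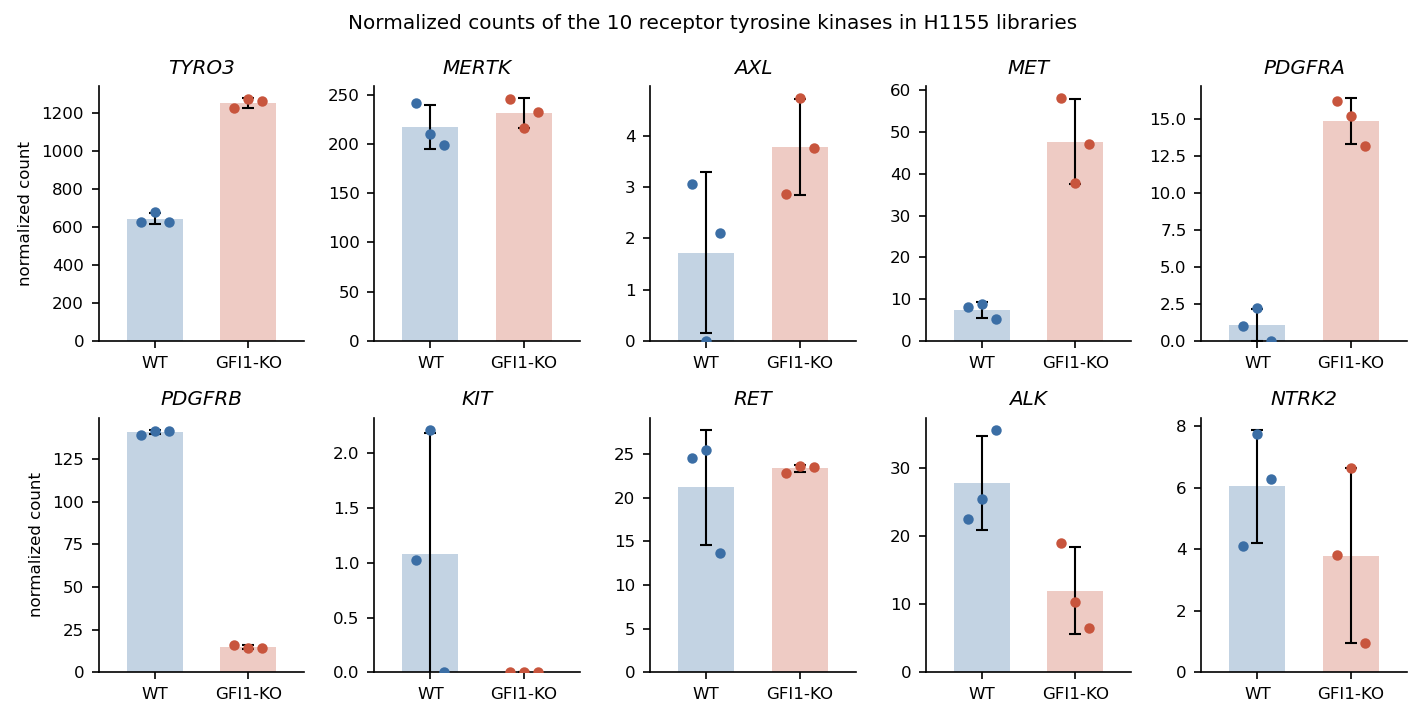
Normalized counts (y axis, from 0, a separate scale for each gene) of the 10 receptors in the 3 WT and 3 GFI1-KO libraries (x axis). Points are libraries, bars are group means and lines are SD; the groups lie apart for TYRO3, MET, PDGFRA, PDGFRB and ALK and overlap for the other 5.

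Of the 10 receptors, 7 had enough counts to be tested. TYRO3, MET and PDGFRA were higher in the GFI1-KO-labelled libraries, PDGFRB and ALK were lower, and MERTK and RET were not called. These 3 higher and 2 lower receptors of 7 stand beside shares of 36.5% and 35.9% among all tested genes, and the 5 of 7 without overlap stand beside 74.4%, so the number of differing receptors was no result in itself. AXL, KIT and NTRK2 fell below the filter (0.595 CPM in at least 3 libraries). MET and PDGFRA reached that level only in the GFI1-KO-labelled libraries, so that they could enter the test only by being high there.

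TYRO3, a TAM receptor for GAS6 and protein S that acts in the clearance of dying cells and in the nervous system, lies on chromosome 15 from 41557675 to 41583586. It was the most abundant of the 10 receptors in both groups. Its normalized counts were 629, 681 and 627 in WT and 1227, 1275 and 1265 in the GFI1-KO-labelled libraries. All 3 GFI1-KO-labelled libraries lay far above all 3 of WT, and the spread within each group was small beside the gap. The means were 645 ± 30.7 and 1256 ± 24.96 (SD, n = 3), a ratio of 1.95. The log2 fold change was 0.96 ± 0.05 (SE, adjusted p = 9.79e-15, edgeR quasi-likelihood test), and the exact permutation test gave p = 0.1, the smallest possible for 3 against 3 libraries. TYRO3 has a GC content of 55.3%, and the 1100 tested genes within 1 percentage point of it had a median log2 fold change of 0.34. With GC and length offsets the difference of TYRO3 was 0.78 ± 0.05 (adjusted p = 3.63e-12).

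MERTK, the TAM receptor known from macrophages and the retinal pigment epithelium, lies on chromosome 2 from 111898479 to 112029561 and was the second receptor in level. It had 242, 210.3 and 198 normalized counts in WT and 246, 216 and 232 in the GFI1-KO-labelled libraries. The groups overlapped, and their means were 217 ± 22.3 and 231 ± 14.9. The log2 fold change was 0.09 ± 0.10 (adjusted p = 0.413, edgeR), and the ratio of the summed counts was 1.07, with a 95% interval of 0.956 to 1.19 that covers counting error only. With GC and length offsets it was 0.23 ± 0.10 and passed the threshold (adjusted p = 0.0498), as it did when the replicate number was added to those offsets (adjusted p = 0.0436). AXL, the TAM receptor of mesenchymal and drug-resistant carcinoma cells, was close to the floor in all libraries. It had 3, 0 and 2 counts in WT and 3, 5 and 4 in the GFI1-KO-labelled libraries, a ratio of summed counts of 2.15 whose interval reached from 0.704 to 7.78. A difference in AXL was not detectable at this depth.

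The ligands that the TAM receptors share moved in different directions in the uncorrected fit. GAS6, which activates all 3 TAM receptors, rose from 241 ± 22.9 to 398 ± 13.0 normalized counts (log2 fold change 0.73 ± 0.09, adjusted p = 2.27e-08, edgeR). All 3 GFI1-KO-labelled libraries (386 to 412) lay above WT (214 to 254), though the 0.73 shrank to 0.21 with GC and length offsets (adjusted p = 0.035). PROS1, which encodes protein S, a ligand of TYRO3 and MERTK and a cofactor in anticoagulation, was the most abundant of the 18 ligands in WT, at 31.3 FPKM, and stood at 24.9 FPKM in the GFI1-KO-labelled libraries, where GDF15 was higher at 27.8 FPKM. Its log2 fold change was -0.33 ± 0.04 (adjusted p = 4.72e-09), but turned to 0.23 with GC and length offsets (adjusted p = 6.02e-06), so the data give no direction for PROS1 that holds under both.

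MET, the receptor of hepatocyte growth factor and a driver of scattering and invasive growth, lies on chromosome 7 from 116672390 to 116798386. It had 8, 8 and 5 counts in WT and 61, 40 and 50 in the GFI1-KO-labelled libraries. WT was near the floor, and every GFI1-KO-labelled library held 40 counts or more. In normalized counts the means were 7.43 ± 1.92 and 47.7 ± 10.1, a ratio of 6.42. The log2 fold change was 2.66 ± 0.33 (adjusted p = 5.53e-08, edgeR; exact permutation p = 0.1), and the counting interval of the ratio was 4.06 to 10.7. Genes of like GC content had a median log2 fold change of -0.25, and with GC and length offsets MET stood at 2.99 ± 0.32. In both groups the level stayed low per length, at 0.0638 ± 0.0165 and 0.410 ± 0.0870 FPKM.

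HGF, the only known ligand of MET, had 57.3, 60.9 and 73.5 normalized counts in WT and 66.7, 74.9 and 51.8 in the GFI1-KO-labelled libraries. The groups overlapped (log2 fold change 0.01 ± 0.19, adjusted p = 0.959), and HGF was called as higher only with GC and length offsets (0.64, adjusted p = 0.00622) and with those offsets and the replicate number. Of 10 genes that cleave HGF, inhibit that cleavage or shed receptors, 8 were tested, 2 were higher and 2 lower. These numbers stand beside 36.5% higher and 35.9% lower among all tested genes. The median log2 fold change of the 8 genes was 0.10, against 0.00 over all tested genes. PLAU, a protease that can activate HGF, rose from 41.1 ± 8.15 to 256 ± 34.8 normalized counts (log2 fold change 2.64 ± 0.15, adjusted p = 2.92e-14), and SPINT2, an inhibitor of HGF-activating proteases, fell from 486 ± 49.3 to 228 ± 16.3 (-1.09 ± 0.09, adjusted p = 1.56e-11). PLAU and SPINT2 share 20.7% and 13.5% of their 50-base words with other genes, and their counts are uncertain to that extent. Of the MET coreceptors, the hyaluronan receptor CD44 rose 3.82-fold, from 380 ± 14.0 to 1450.1 ± 40.6 normalized counts (log2 fold change 1.93 ± 0.06, adjusted p = 1.93e-20; 2.14 with GC and length offsets). The semaphorin receptor PLXNB1, which can associate with MET, fell from 941 ± 66.0 to 749 ± 40.3 (-0.33 ± 0.06, adjusted p = 2.49e-05), and stood at -0.80 with GC and length offsets and, not called, at -0.13 with length offsets alone (adjusted p = 0.0533).

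The PDGF receptors, which are best known from fibroblasts, pericytes and glial precursors, differed in opposite directions. PDGFRB, the receptor of PDGF-BB and PDGF-DD, lies on chromosome 5 from 150113837 to 150155872. Its normalized counts were 139, 142 and 142 in WT and 16.2, 14.2 and 14.1 in the GFI1-KO-labelled libraries. The groups were far apart and the libraries of each group nearly equal, with means of 141 ± 1.41 and 14.8 ± 1.17, so that WT was 9.49-fold higher. The log2 fold change was -3.24 ± 0.20 (adjusted p = 8.74e-14, edgeR; exact permutation p = 0.1). PDGFRB is rich in GC (57.7%), and genes of like GC content had a median log2 fold change of 0.47, opposite in sign; with GC and length offsets PDGFRB stood at -3.56 ± 0.20.

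PDGFRA, which also binds PDGF-AA and PDGF-CC, lies on chromosome 4 from 54229097 to 54298247. It had 1, 2 and 0 counts in WT and 17, 16 and 14 in the GFI1-KO-labelled libraries. WT was at the floor, and the GFI1-KO-labelled libraries were all well above it. The ratio of summed counts was 14.0, with a wide counting interval of 4.51 to 70.4, and the fitted log2 fold change was 3.66 ± 0.63 (adjusted p = 1.17e-05, edgeR). Leaving out WT library 2, which held 2 of the 3 WT counts, gave 4.54, and leaving out WT library 3, which held none, gave 3.11; both stayed called. PDGFRA shares 15.4% of its 50-base words with other genes, and its low counts are uncertain to that extent. At 14.8 ± 1.54 and 14.8 ± 1.17 normalized counts, PDGFRA and PDGFRB reached similar counts in the GFI1-KO-labelled libraries, and per length PDGFRB was at 0.126 ± 0.00995 FPKM and PDGFRA at 0.0922 ± 0.00954.

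Markers of fibroblasts were looked at beside the PDGF receptors. Of 9 such markers, 4 were tested, 2 were higher (COL3A1 and ACTA2) and 2 lower (COL1A1 and COL1A2), and DCN had no count in any library. COL1A1 was called in 14 of its 17 alternative fits (adjusted p up to 0.188). Their summed FPKM was 16.6 to 17.0 in WT and 12.9 to 13.4 in the GFI1-KO-labelled libraries. COL3A1 rose from 2.49 ± 0.721 to 139 ± 18.8 normalized counts, and COL1A2 fell from 2912 ± 49.6 to 2008 ± 43.1. In WT, COL3A1 lay below the filter level, so that it could enter the test only by being high in the GFI1-KO-labelled libraries. Of 6 epithelial markers, led by KRT8, KRT18 and KRT7, 5 were tested, with 1 higher and 2 lower. Of 6 endothelial markers, led by PECAM1, CLDN5 and CDH5, 3 were tested, with 1 higher and 1 lower, and EMCN was at 0. Of 9 blood cell markers none reached the filter, and CD3E, TPSAB1 and MS4A2 were at 0. These numbers of higher and lower markers stand beside 36.5% and 35.9% of all tested genes. The part of other cells in the receptor values was not tested, and in bulk RNA fewer cells expressing a gene and less RNA per cell cannot be told apart.

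The PDGF ligands were low. PDGFB rose from 77.3 ± 5.78 to 137 ± 9.95 normalized counts (log2 fold change 0.83 ± 0.14, adjusted p = 9.29e-06, edgeR), and PDGFC fell from 43.96 ± 11.9 to 24.0 ± 4.09 (-0.87 ± 0.27, adjusted p = 0.00497). Neither was called with GC and length offsets, which left 0.28 for PDGFB (adjusted p = 0.0866) and -0.47 for PDGFC (adjusted p = 0.127). PDGFA (58.0 ± 14.2 and 64.4 ± 2.83) and PDGFD (20.9 ± 10.5 and 13.6 ± 2.86) overlapped between the groups. Of these, PDGFD was called lower only without WT library 2 (log2 fold change -0.99, adjusted p = 0.0179). The log2 fold changes of PDGFA (0.15) and PDGFD (-0.63) stood at -0.42 and -0.17 with GC and length offsets, both not called. The neuropilins, coreceptors for VEGF and semaphorins that also bind PDGF and HGF, were expressed in both groups, with NRP1 at 569 ± 30.9 and 655 ± 43.9 normalized counts (log2 fold change 0.20 ± 0.07, adjusted p = 0.00821; 0.48 with GC and length offsets) and NRP2 at 302 ± 23.7 and 339 ± 21.0 (0.17 ± 0.08, adjusted p = 0.0794). NRP1 lost its call without WT library 2 (0.15, adjusted p = 0.0558) and without GFI1-KO library 3 (0.17, adjusted p = 0.0517), and NRP2 was called higher without WT library 2 (0.22, adjusted p = 0.0404) and with length offsets alone (0.41).

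ALK, a receptor of the developing nervous system and the partner in ALK fusions, lies on chromosome 2 from 29192774 to 29921566. Its normalized counts were 22.5, 25.5 and 35.7 in WT and 19.1, 10.4 and 6.59 in the GFI1-KO-labelled libraries. The groups did not overlap, but the highest GFI1-KO-labelled library came close to the lowest of WT. The means were 27.9 ± 6.91 and 12.0 ± 6.39, and the log2 fold change was -1.21 ± 0.36 (adjusted p = 0.00429, edgeR; exact permutation p = 0.1). The value ranged from -1.70 to -0.91 when single libraries were left out and stayed called. The ALK ligands ALKAL1 and ALKAL2 were at or near the floor, with 0 to 1 and 0 to 5 counts per library, and were not tested. The 2 antisense genes annotated within ALK had no counts.

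RET, the signaling receptor of the GDNF family, lies on chromosome 10 from 43077027 to 43130351. It had 24.6, 25.5 and 13.6 normalized counts in WT and 22.9, 23.7 and 23.5 in the GFI1-KO-labelled libraries. WT library 3 was low and the other 5 libraries lay close together. The difference of 0.14 ± 0.31 on the log2 scale was not called (adjusted p = 0.698, edgeR), the ratio of summed counts was 1.10 with a counting interval of 0.774 to 1.58, and the sign turned without WT library 3 (-0.11) and with GC and length offsets (-0.09).

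RET signals together with a GFRA coreceptor, and of the GFRA genes GFRA1 and GFRA2 passed the filter. GFRA1, the coreceptor of GDNF, had 1186, 1162 and 1147 normalized counts in WT and 169, 157 and 170.3 in the GFI1-KO-labelled libraries. WT was 7.04-fold higher without any overlap (log2 fold change -2.82 ± 0.07, adjusted p = 3.09e-22, edgeR; -2.72 with GC and length offsets). GFRA2, the coreceptor of neurturin, had 24.6, 36.5 and 56.7 normalized counts in WT and 21.9, 23.7 and 19.8 in the GFI1-KO-labelled libraries (-0.84 ± 0.30, adjusted p = 0.013). WT library 3 was the highest, and the lowest of WT lay close to the GFI1-KO-labelled libraries. Without WT library 3 the difference was -0.49 and no longer called (adjusted p = 0.181), nor was it called by DESeq2 (-0.85, adjusted p = 0.0683). GFRA3 was near the floor, and GFRA4 and GFRAL had no count in any library. Among the ligands of the family, GDNF and ARTN did not pass the filter. ARTN was near the floor in WT, with 3, 4 and 3 counts, and had 15, 8 and 20 in the GFI1-KO-labelled libraries. ARTN reached the filter level in 0 WT and 2 GFI1-KO-labelled libraries. Fits that use this filter and left 1 library out could therefore test ARTN only through libraries where it was high. Without this filter, ARTN was called higher by DESeq2 (log2 fold change 1.94, adjusted p = 0.0264) and by edgeR (1.92, adjusted p = 0.00176). NRTN had 56.9 ± 12.0 and 69.8 ± 6.999 normalized counts (adjusted p = 0.181), with a call of lower only under GC and length offsets (-0.63, adjusted p = 0.00829). PSPN, the ligand of GFRA4, rose from 101 ± 15.5 to 139 ± 4.72 (log2 fold change 0.47 ± 0.14, adjusted p = 0.00398), which became -0.04 with GC and length offsets. GDF15, a stress-induced ligand that reaches RET through GFRAL, rose 3.01-fold, from 319 ± 26.3 to 958 ± 47.7 normalized counts (1.59 ± 0.07, adjusted p = 5.14e-17; 0.93 with GC and length offsets, adjusted p = 1.78e-11).

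KIT, the receptor of stem cell factor, lies on chromosome 4 from 54657918 to 54740715, and had 1, 2 and 0 counts in WT and 0 in each GFI1-KO-labelled library. Both groups were at or under the floor. Its ligand was abundant: KITLG had 603, 670 and 677 normalized counts in WT and 297, 267 and 256 in the GFI1-KO-labelled libraries. WT was 2.38-fold higher (log2 fold change -1.25 ± 0.08, adjusted p = 6.5e-14, edgeR), and genes of like GC content had a median of -0.56. With GC and length offsets KITLG stood at -0.55 (adjusted p = 9.39e-07).

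NTRK2, the receptor of BDNF and neurotrophin-4, lies on chromosome 9 from 84668551 to 85027070, and had 4, 7 and 6 counts in WT and 4, 7 and 1 in the GFI1-KO-labelled libraries. The groups overlapped, and the ratio of summed counts was 0.631 with a counting interval of 0.275 to 1.40. Of its ligands, BDNF fell from 29.4 ± 5.21 to 11.1 ± 4.30 normalized counts (log2 fold change -1.40 ± 0.34, adjusted p = 0.000754, edgeR; -0.91 with GC and length offsets) and NTF3, which prefers NTRK3, fell from 76.0 ± 10.7 to 29.7 ± 1.63 (-1.36 ± 0.21, adjusted p = 2.22e-06). BDNF shares 10.6% of its 50-base words with other genes. SORT1, a sorting receptor that binds proneurotrophins, fell from 1357 ± 36.4 to 1015 ± 42.8 (-0.42 ± 0.05, adjusted p = 1.73e-08; -0.17 with GC and length offsets). The neurotrophin receptor NGFR had 46.7 ± 13.0 and 35.0 ± 1.64 normalized counts (log2 fold change -0.41, adjusted p = 0.132), and was called lower with GC and length offsets (-1.07, adjusted p = 0.000655) and without WT library 1 (-0.61, adjusted p = 0.0337). NGFR shares 23.0% of its 50-base words with other genes, and its counts are uncertain to that extent.

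**Figure D2:**
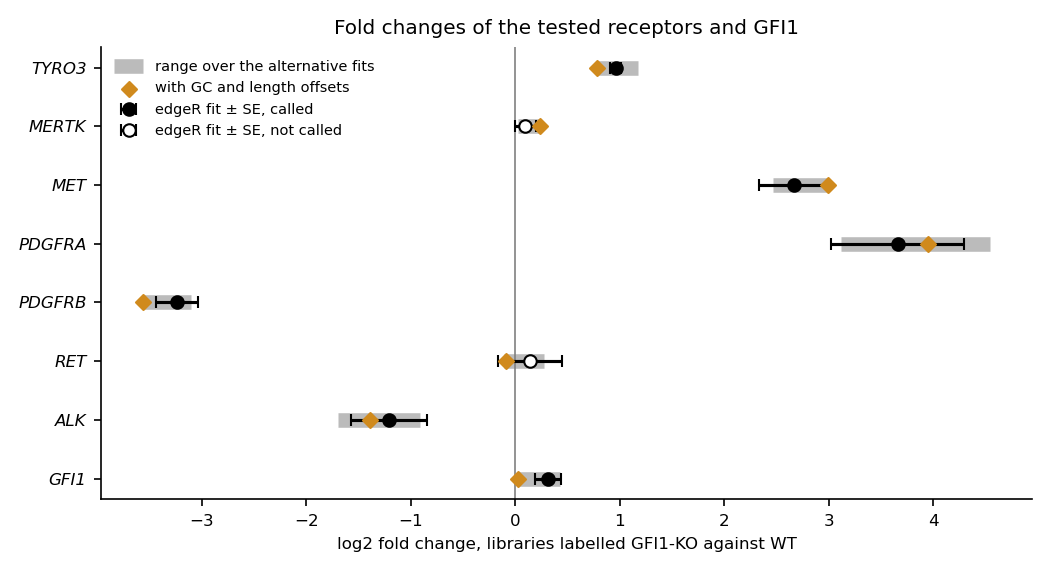
Log2 fold change (x axis) of the 7 tested receptors and GFI1 (y axis) in GFI1-KO-labelled libraries against WT, with SE; filled points were called, open points were not, grey bars span the alternative fits and diamonds give the fit with GC and length offsets. TYRO3, MET and PDGFRA stay above 0, PDGFRB and ALK stay below 0 and the bar of RET crosses 0.

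The receptors were compared with each other per length, in FPKM computed from the counts, the deposited gene lengths and the TMM library sizes. In WT the order was TYRO3 (3.57 ± 0.170), MERTK (2.79 ± 0.287), PDGFRB (1.19 ± 0.0120), ALK (0.229 ± 0.0567) and RET (0.186 ± 0.0576), with MET, AXL, NTRK2, KIT and PDGFRA below 0.1. The ranges of ALK and RET overlapped, as did those of AXL, NTRK2, KIT and PDGFRA in sequence, and the other neighbours in the order did not overlap. In the GFI1-KO-labelled libraries the order was TYRO3 (6.94 ± 0.138), MERTK (2.98 ± 0.192), MET (0.410 ± 0.0870), RET (0.204 ± 0.00381), PDGFRB (0.126 ± 0.00995), ALK (0.0987 ± 0.0525) and PDGFRA (0.0922 ± 0.00954). The ranges of PDGFRB and ALK overlapped there, as did those of ALK and PDGFRA. With canonical transcript lengths PDGFRA (0.141) stood above ALK (0.116) there, and NTRK2 (0.0422) above AXL (0.0221) in WT. TYRO3 and MERTK led in both groups, PDGFRB moved from the third place to the fifth, and MET from the sixth to the third.

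The 10 receptors summed to 8.30, 8.24 and 7.71 FPKM in WT and 11.1, 10.7 and 10.9 FPKM in the GFI1-KO-labelled libraries. The sums did not overlap, and their ratio was 1.35 (exact permutation p = 0.1, the smallest possible). TYRO3 made up 44.1% ± 2.01 of the sum in WT and 63.7% ± 2.26 in the GFI1-KO-labelled libraries, and the share of PDGFRB went from 14.8% ± 0.695 to 1.15% ± 0.0750. Without TYRO3 the sum was 4.52 ± 0.288 in WT and 3.96 ± 0.311 in the GFI1-KO-labelled libraries (exact permutation p = 0.2). The 3 TAM receptors together went from 6.37 ± 0.301 to 9.96 ± 0.0746 FPKM, and the PDGF receptors together went from 1.20 ± 0.0140 to 0.218 ± 0.0184 FPKM.

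**Figure D3:**
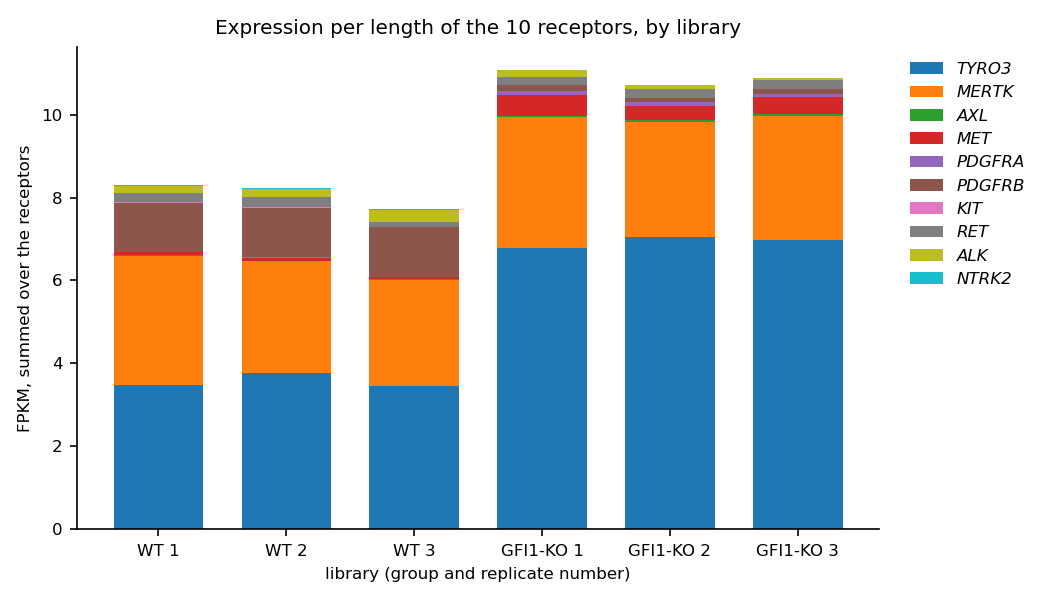
Stacked FPKM (y axis) of the 10 receptors in each of the 6 libraries (x axis), with 1 color for each gene. TYRO3 and MERTK fill most of every bar; the sums lie between 7.71 and 8.30 in WT and between 10.7 and 11.1 in the GFI1-KO-labelled libraries, and the PDGFRB block seen in WT is thin there.

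The genes whose pattern over the 6 libraries was most like that of TYRO3, by Euclidean distance of centered log2 CPM, were FAM129A (distance 0.0498), RGS14 (0.0585) and SLC25A6 (0.0642), with log2 fold changes of 0.97, 0.97 and 0.97. These genes stood at 1.24, 0.32 and 0.31 with GC and length offsets, and TYRO3 at 0.78. The same was not done for a decrease, since none of the 10 receptors with a mean of at least 100 normalized counts over all 6 libraries was lower in the GFI1-KO-labelled libraries, and PDGFRB had 77.9 over all 6.

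The nearest tested protein-coding gene on each side of the 7 tested receptors was also looked at, a step chosen after the receptor values were seen. Beside MET, the caveolin gene CAV1, 111 kb away, was higher in the GFI1-KO-labelled libraries (74.2 ± 10.6 and 295 ± 4.08 normalized counts, log2 fold change 1.98 ± 0.12, adjusted p = 3.54e-14, edgeR), whereas CAPZA2, 12.7 kb away on the other side, was lower (-0.48 ± 0.04), which turned to 0.16 with GC and length offsets (adjusted p = 0.000191). CAV1 stood at 2.19 with the offsets. With and without them, CAV1 was the only one of the 14 neighbours with a log2 fold change of 1 or more in size. Beside PDGFRB, HMGXB3 and TCOF1 had log2 fold changes of 0.15 and 0.24, which turned to -0.10 and -0.14 with the offsets. Beside TYRO3, RPAP1 stood at 0.03 (adjusted p = 0.653) and MGA at -0.17, against -0.32 and 0.26 with the offsets. Beside ALK, CLIP4 stood at 0.18 and YPEL5 at -0.24, against 0.78 and 0.03 with the offsets.

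The pathway around the receptors was described with 7 fixed lists. Of 18 ligands, 13 were tested, with 4 higher and 5 lower and a median log2 fold change of 0.01, and of 11 coreceptors, 8 were tested, with 2 higher, 4 lower and a median of -0.37. Without WT library 3 and in DESeq2, 3 coreceptors were lower. Of 29 adaptors and effectors, 25 were tested, with 11 higher, 12 lower and a median of -0.03. The adaptor SHC1, which links receptors to RAS, rose from 701 ± 41.8 to 1901 ± 52.7 normalized counts (log2 fold change 1.44 ± 0.05, adjusted p = 6.27e-19, edgeR), although 15.5% of its 50-base words occur in other genes. DOK6, an adaptor of RET, fell from 335 ± 22.9 to 126 ± 4.38 (-1.41 ± 0.10, adjusted p = 1.18e-12). With GC and length offsets the adaptors came to 10 higher and 6 lower, and 7 of the called adaptors changed sign, but SHC1 (1.13) and DOK6 (-0.86) kept their direction and call.

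Of 22 negative regulators, which ubiquitinate, dephosphorylate or otherwise damp receptors, 20 were tested, with 6 higher and 10 lower (5 and 7 with GC and length offsets), and the cytokine-induced inhibitor SOCS3 rose from 339 ± 26.6 to 723 ± 22.4 normalized counts (log2 fold change 1.09 ± 0.07, adjusted p = 1.48e-13; 0.46 with GC and length offsets). Of 16 genes that ERK signaling is known to induce, all were tested, with 7 higher, 7 lower (5 and 6 with GC and length offsets) and a median of 0.01. The immediate early gene EGR1 rose from 658 ± 45.5 to 1323 ± 27.4 (log2 fold change 1.01 ± 0.05, adjusted p = 6.38e-15) and IER3 from 1278 ± 56.9 to 2562 ± 27.5 (1.00 ± 0.04, adjusted p = 1.99e-17), while the ETS factor ETV1 fell from 2620.5 ± 66.2 to 1176 ± 5.002 (-1.16 ± 0.04, adjusted p = 5.79e-19). With GC and length offsets all 3 kept their direction and call at smaller values, 0.69 for EGR1, 0.48 for IER3 and -0.60 for ETV1, and 31.7% of the 50-base words of IER3 occur in other genes. Each of these lists held genes called in both directions, beside 36.5% higher and 35.9% lower among all tested genes. With GC and length offsets the numbers over all 17415 genes were 6215 higher and 4412 lower.

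**Figure D4:**
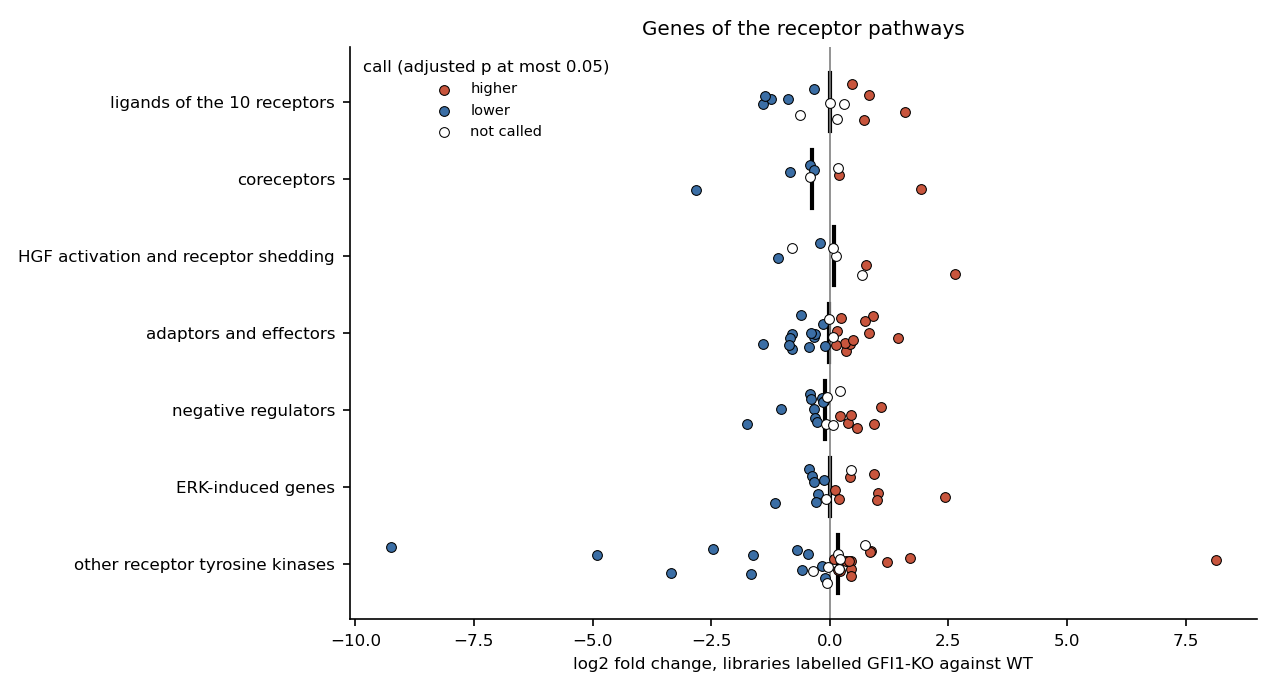
Log2 fold change (x axis) in GFI1-KO-labelled libraries against WT of the tested genes in 7 lists (y axis), 1 point per gene, colored by call at an adjusted p of at most 0.05, with a black bar at each list's median. The medians lie between -0.37 (coreceptors) and 0.16 (other receptor tyrosine kinases), with higher and lower genes in every list.

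Among 40 other receptor tyrosine kinases, 31 were tested, with 13 higher (41.9%) and 11 lower (35.5%). The shares among all tested genes were 36.5% and 35.9%. The median log2 fold change of these 31 receptors was 0.16. With GC and length offsets the split was 8 higher and 16 lower, and 6 of the called genes changed sign. That fit called 6215 higher and 4412 lower of 17415 genes. ROR1, a Wnt5a receptor, fell from 369 ± 22.9 to 36.3 ± 7.12 normalized counts (-3.34 ± 0.13, adjusted p = 8.64e-18, edgeR), and the ephrin receptor EPHA5 fell from 871 ± 12.7 to 275 ± 15.5 (-1.66 ± 0.07, adjusted p = 1.06e-17). EPHB4 rose from 197 ± 19.5 to 459 ± 14.4 (1.22 ± 0.09, adjusted p = 1.21e-12; 0.72 with GC and length offsets). Named after their values were seen, ROS1 and EPHA3 could enter the test only through the group in which they were high. ROS1 had 0 counts in every WT library and 35.0 ± 3.08 normalized counts in the GFI1-KO-labelled libraries. Against a floor of 3 counts per library, ROS1 was at least 10.5-fold higher. EPHA3 went from 76.0 ± 12.1 to 0 in every GFI1-KO-labelled library, at least 26.6-fold lower. The 40 genes summed to 114 to 115 FPKM in WT and 118 to 121 FPKM in the GFI1-KO-labelled libraries, against 7.71 to 8.30 and 10.7 to 11.1 FPKM for the 10 receptors.

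**Figure D5:**
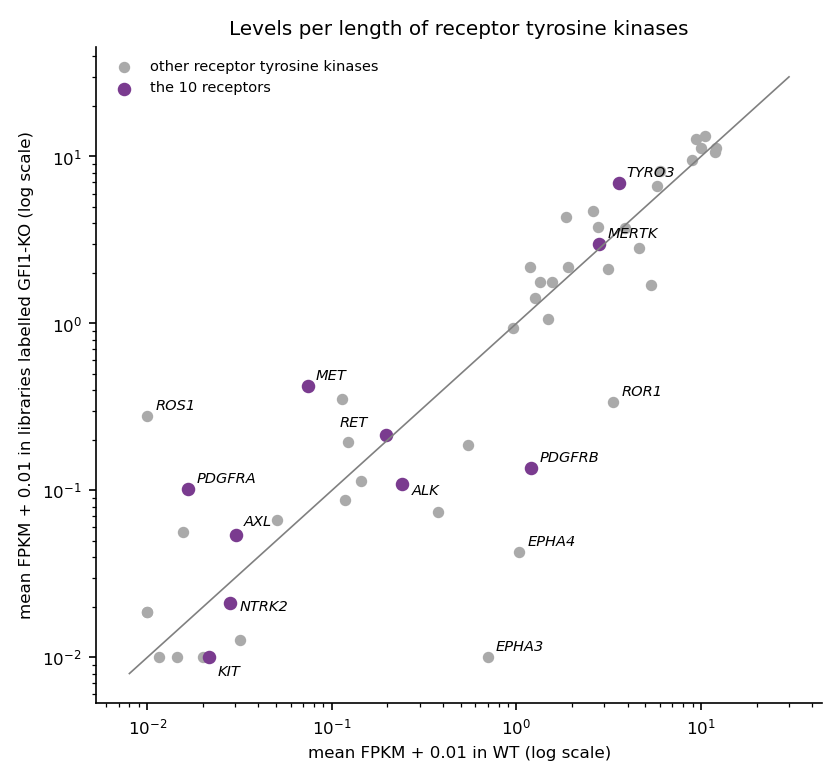
Mean FPKM plus 0.01 (log scales) of receptor tyrosine kinases in WT (x axis) and in GFI1-KO-labelled libraries (y axis), with the 10 receptors in purple, the 40 others in grey and a line of equality. TYRO3 and MERTK lie among the better expressed genes, MET and PDGFRA lie above the line at low levels, and PDGFRB and ALK lie below it.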

How the data were processed

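RNA-Seq read counts per gene, 1 whole number per gene and library, were used as the authors deposited them, without normalization. The authors' methods name poly-T selection, Hisat2 and featureCounts on GRCh38, whereas the submitters' processing notes name Bowtie2 and HTSeq on hg38. The annotation, the strand setting and the rule for reads matching several places were not given in the sources used here. Genes on either strand of a locus can thus not be told apart by counting. The authors also deposited the start, end and length of each gene, whose values are in bases. Neither the ChIP-Seq nor other RNA-Seq of the study was analysed here.

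Differential expression was tested over the whole table with edgeR 4.0.16 in R 4.3.3 (TMM factors, filterByExpr, quasi-likelihood F test, Benjamini-Hochberg adjustment over 17514 genes, adjusted p at most 0.05, no fold change minimum). The filter requires 0.595 CPM in at least 3 libraries. Normalized counts are counts scaled to the mean TMM library size, SE was derived from the fold change and F, permutation tests were exact and two-sided, and ratio intervals are exact 95% binomial intervals of the summed counts. Counts amplified by PCR are not independent molecules, and intervals and floors of 3 counts cover counting error only. GC and length offsets came from natural splines with 5 degrees of freedom. A gene was called uncertain where over 10% of its 50-base words in GENCODE 44 transcripts occur in other genes.

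The receptors, lists and tests were chosen with earlier results of these data known. Named were all 10 receptors, GFI1, every ligand and coreceptor past the filter, and from other lists up to 5 genes per direction with a called log2 fold change of at least 1 in size and a mean of at least 100 normalized counts over all 6 libraries. For the receptor with the largest increase and the largest decrease at that mean, the 3 genes of nearest pattern were named, and of each marker list the 3 of highest mean FPKM and those at 0. Some marker genes are not reported here. Genes outside this rule are marked as named after their values were seen.

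Replicates of a group differed by more than sampling noise (chi-square per degree of freedom 1.82 to 4.14) and were counted separately. Alternatives were DESeq2 1.42.0, limma-voom (limma 3.58.1), upper-quartile or median-of-ratios factors, unadjusted library sizes, other filters and thresholds, the replicate block, the offsets and each library left out. In simulated counts for 17514 genes, 200 genes had a true log2 change of 1 in size, as many up as down. The edgeR step found 84.5% of them, with 8.65% of calls false. Those counts held no GC trend and far fewer changed genes than were called here. The rates therefore do not carry over to the calls in these data. Figures were drawn with matplotlib 3.10.9.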

Additional observations from a re-analysis of the deposited data

How the results depend on the processing

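TYRO3, MET and PDGFRA stayed higher and PDGFRB and ALK stayed lower, and past an adjusted p of 0.05, in each alternative fit in which they were tested. With at least 10 counts in every library, MET, PDGFRA and ALK could not be tested, which left 1 receptor higher and 1 lower. A log2 fold change minimum of 1 left 3068 of 17514 tested genes called, and TYRO3 (0.96) fell short of it. Under that minimum the numbers higher and lower were 1 and 3 of 13 tested ligands and 1 and 1 of 8 coreceptors. They were 1 and 1 of 8 for HGF activation and receptor shedding and 1 and 1 of 25 for adaptors and effectors. Negative regulators had 1 and 2 of 20, ERK-induced genes 3 and 1 of 16 and other receptor tyrosine kinases 3 and 6 of 31.

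GC and length offsets left 10627 of 17415 genes called, 6215 higher and 4412 lower. Of the 10627, 8961 were also called without offsets, and 7563 of those in the same direction. MERTK was then called (0.23), RET turned sign (-0.086), the HGF activation list had 4 higher, the adaptors 6 lower and the other receptor tyrosine kinases 8 higher. Length offsets alone left 1 gene of the HGF activation list and 4 negative regulators lower. Over all 17514 genes that fit called 6469 higher and 6034 lower. GFI1 (0.31) was called in 9 of 17 alternative fits, and not in DESeq2 (adjusted p = 0.127). The cause of these shifts was not tested.

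When single libraries were left out, 12150 to 12499 genes were called, the higher coreceptors numbered 1 to 2 and the lower ones 3 to 5, and the log2 fold change of RET ranged from -0.11 to 0.28. The summed FPKM ratio of 1.35 ranged from 1.31 to 1.37 over other library scalings and canonical transcript lengths, the latter chosen after seeing the data. The sum was not computed with GC and length offsets, under which TYRO3, its largest part, moved from 0.96 to 0.78.

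Same-numbered libraries did not deviate together: their correlations of -0.00617 to 0.0213 lay within those of differently numbered ones (-0.0502 to 0.0439). The groups were therefore compared as unpaired, although so few libraries cannot show whether they were prepared in pairs. With the replicate number as a block 12573 genes were called, and 3 receptors were higher and 2 lower. With the block and the GC and length offsets together, MERTK was called (0.23) and RET stood at -0.069. The HGF activation list then had 4 higher, the adaptors 6 lower, the negative regulators 6 lower and the other receptor tyrosine kinases 8 higher. Over all 17415 genes that fit called 6152 higher and 4343 lower.

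Depth limits the values of AXL, KIT and NTRK2 in both groups and of MET and PDGFRA in WT. It also limits ALK in the GFI1-KO-labelled libraries, which held 20, 11 and 7 counts and of which 2 reached the filter level.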
